A study of Mus musculus with 12 samples.

Results

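The 9 genes described here encode receptors for extracellular nucleotides, nucleosides and a lipid, and an enzyme that degrades nucleotides outside the cell. They were chosen by symbol, P2ry12, P2ry13, P2ry6, P2ry1, P2rx4, P2rx7, Entpd1, Gpr34 and Adora3, and all 9 were found among the 40853 gene symbols of the count tables. RNA had been sequenced from microglia and from astrocytes sorted by flow cytometry from whole brains of mice aged 8 to 9 weeks. The mice were wild type (WT) or carried a knockout (KO) of Kpna4, the gene of an importin alpha that carries proteins into the nucleus. All mice of both genotypes had been injected in the peritoneum with 1 mg/kg of the bacterial endotoxin lipopolysaccharide (LPS), which provokes inflammation, 20 h before dissection, so no value below compares a treated with an untreated brain. The 4 groups combined cell type and genotype, with 3 libraries each, and by their animal numbers 6 mice, 3 of each genotype, gave 1 library of each cell type. The labels name no strain, no exon that was deleted and no markers used for the sort.

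Cells release ATP, ADP, UTP and UDP when they are active, stressed or damaged, and enzymes on the cell surface cut these nucleotides down to adenosine. P2X receptors are ion channels opened by ATP, P2Y receptors are G protein-coupled receptors for ATP, ADP, UTP or UDP, and adenosine has receptors of its own. In the brain, P2ry12 is known as a marker of resting microglia, which use it to extend their processes towards ADP released at a site of injury.

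Promoter sequences show how the members differ at their start sites. RefSeq windows from 250 bases before to 50 bases after a start (build GRCm38.p6) were found for 7 members, with 9 windows in all, since P2rx7 and Entpd1 have windows at more than 1 start. P2ry6 and Gpr34 were not matched. Each window was searched on both strands for GAGGAA, the core bound by PU.1, a transcription factor that defines myeloid cells, and 5 of them are shown 5′ to 3′ with matches to that core, or to its reverse complement, in capitals. P2ry12 and P2ry13 are shown as the pair of ADP receptor genes with the highest microglia levels (chr3:59262936-59263235 and chr3:59210833-59211132, both on the minus strand). P2rx7 (chr5:122643677-122643976, plus strand) is shown as the member whose levels differed least between the cell types, Adora3 (chr3:105904171-105904470, plus strand) as the member with the highest ratio, and P2ry1 (chr3:61002535-61002834, plus strand) as the member with the opposite direction.
P2ry12: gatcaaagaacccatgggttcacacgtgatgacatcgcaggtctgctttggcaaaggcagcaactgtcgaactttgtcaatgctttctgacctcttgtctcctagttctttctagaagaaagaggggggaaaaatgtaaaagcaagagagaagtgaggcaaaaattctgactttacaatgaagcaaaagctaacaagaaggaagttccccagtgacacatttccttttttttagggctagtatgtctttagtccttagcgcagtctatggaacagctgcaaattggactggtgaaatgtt
P2ry13: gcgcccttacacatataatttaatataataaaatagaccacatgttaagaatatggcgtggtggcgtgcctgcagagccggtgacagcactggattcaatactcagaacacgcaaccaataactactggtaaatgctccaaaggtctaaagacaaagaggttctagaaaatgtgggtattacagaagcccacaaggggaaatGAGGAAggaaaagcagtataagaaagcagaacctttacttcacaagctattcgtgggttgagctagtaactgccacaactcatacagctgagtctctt
P2rx7: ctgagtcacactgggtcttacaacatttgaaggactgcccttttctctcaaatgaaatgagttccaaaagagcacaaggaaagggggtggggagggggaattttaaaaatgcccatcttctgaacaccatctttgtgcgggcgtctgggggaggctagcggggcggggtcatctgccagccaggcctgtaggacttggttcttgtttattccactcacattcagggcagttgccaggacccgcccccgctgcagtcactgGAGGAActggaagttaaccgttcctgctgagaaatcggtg
Adora3: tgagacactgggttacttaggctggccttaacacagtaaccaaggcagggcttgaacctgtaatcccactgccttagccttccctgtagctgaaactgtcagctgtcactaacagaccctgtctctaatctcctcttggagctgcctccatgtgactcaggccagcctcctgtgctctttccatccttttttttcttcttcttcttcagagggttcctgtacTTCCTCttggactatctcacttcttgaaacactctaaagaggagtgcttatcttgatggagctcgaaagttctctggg
P2ry1: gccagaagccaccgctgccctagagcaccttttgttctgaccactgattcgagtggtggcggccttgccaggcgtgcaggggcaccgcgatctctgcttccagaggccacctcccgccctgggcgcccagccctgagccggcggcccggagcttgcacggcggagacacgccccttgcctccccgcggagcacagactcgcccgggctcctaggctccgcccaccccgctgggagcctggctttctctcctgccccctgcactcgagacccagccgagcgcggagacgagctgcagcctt
The core was found in 5 of the 9 windows, belonging to 4 of the 7 members, P2ry13, P2rx7, Entpd1 and Adora3. The windows of P2ry12, P2ry1 and P2rx4 and 1 window of Entpd1 did not hold it. Other forms of a PU.1 site were not searched, so these windows are not shown to lack one. Among all 32851 RefSeq windows of this length, 28.3% held GAGGAA. The composite ETS-IRF element GGAANNGAAA and the interferon response core GAAANNGAAA, which may overlap each other and the PU.1 core, were in 0 of the 9 windows. Over all windows, 2.72% held the composite element and 3.44% the interferon response core.

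Totals ranged from 10.3 to 14.5 M counts per library in microglia and from 10.7 to 15.6 M in astrocytes. Levels are given as CPM, the counts of a gene scaled to a library total of 1000000. Kpna4 averaged 84.4 ± 14.8 CPM in WT microglia, 69.0 ± 9.41 CPM in KO microglia, 49.6 ± 8.81 CPM in WT astrocytes and 64.4 ± 18.6 CPM in KO astrocytes (SD, n = 3 each), with overlapping genotypes in each cell type. As the labels do not state which part of Kpna4 was deleted, these whole-gene counts do not check the genotype labels, and KO below means labelled KO. The 11 microglia markers (Cx3cr1, Csf1r, Tmem119, C1qa and 7 others) summed to 15513 to 19714 CPM in the microglia libraries and to 229 to 641 CPM in the astrocyte libraries, with the highest astrocyte value in WT replicate 1. The 10 astrocyte markers (Aqp4, Slc1a3, Gja1, Gfap and 6 others) summed to 17585 to 23457 CPM in astrocytes and 358 to 761 CPM in microglia. No marker of either list was at 0 in all libraries of the other cell type. Cd3e and Trac, defining markers of T cells, had no count in any of the 6 microglia libraries (a count of 0 allows at most 3 in each), and the 7 border macrophage markers (Mrc1, Lyve1, Pf4 and others) summed to 125 to 250 CPM there. In the astrocyte libraries, 6 oligodendrocyte markers summed to 772 to 3807 CPM and 5 choroid plexus markers to 493 to 1107 CPM. There, 4 pericyte markers summed to 301 to 399 CPM and 3 ependyma markers to 200 to 490 CPM. The same 4 sums in the microglia libraries were 252 to 1688, 356 to 2227, 4.26 to 27.7 and 3.1 to 10.3 CPM. In sorted bulk samples, fewer cells of a type and less RNA per cell cannot be told apart.

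Comparison of the cell types showed 8 of the 9 members higher in microglia and P2ry1 higher in astrocytes. All 9 passed edgeR's quasi-likelihood test at an adjusted p under 0.05, against a background of 64.6% of all 17294 genes tested (28.2% called higher in microglia and 36.4% called higher in astrocytes). DESeq2 also called all 9, and 66.6% of all genes. P2ry1 was too low to be tested within microglia and Adora3 within astrocytes, and each passed the count filter through the other cell type. The calls of these genes are thus no separate support for a difference. P2ry12, P2ry13, P2ry6, Gpr34 and Adora3, 5 of the 9, were called and over 16-fold higher in microglia, as were 5.22% of all genes. The median log2 fold change of microglia over astrocytes was 4.98 over the members and -0.19 over all genes tested. For every member the 6 microglia libraries lay on 1 side of the 6 astrocyte libraries, above them for 8 members and below them for P2ry1. Over all genes, 24.9% had all microglia libraries above and 21.7% had them all below. The plot of counts by library shows each value.

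**Figure D1:**
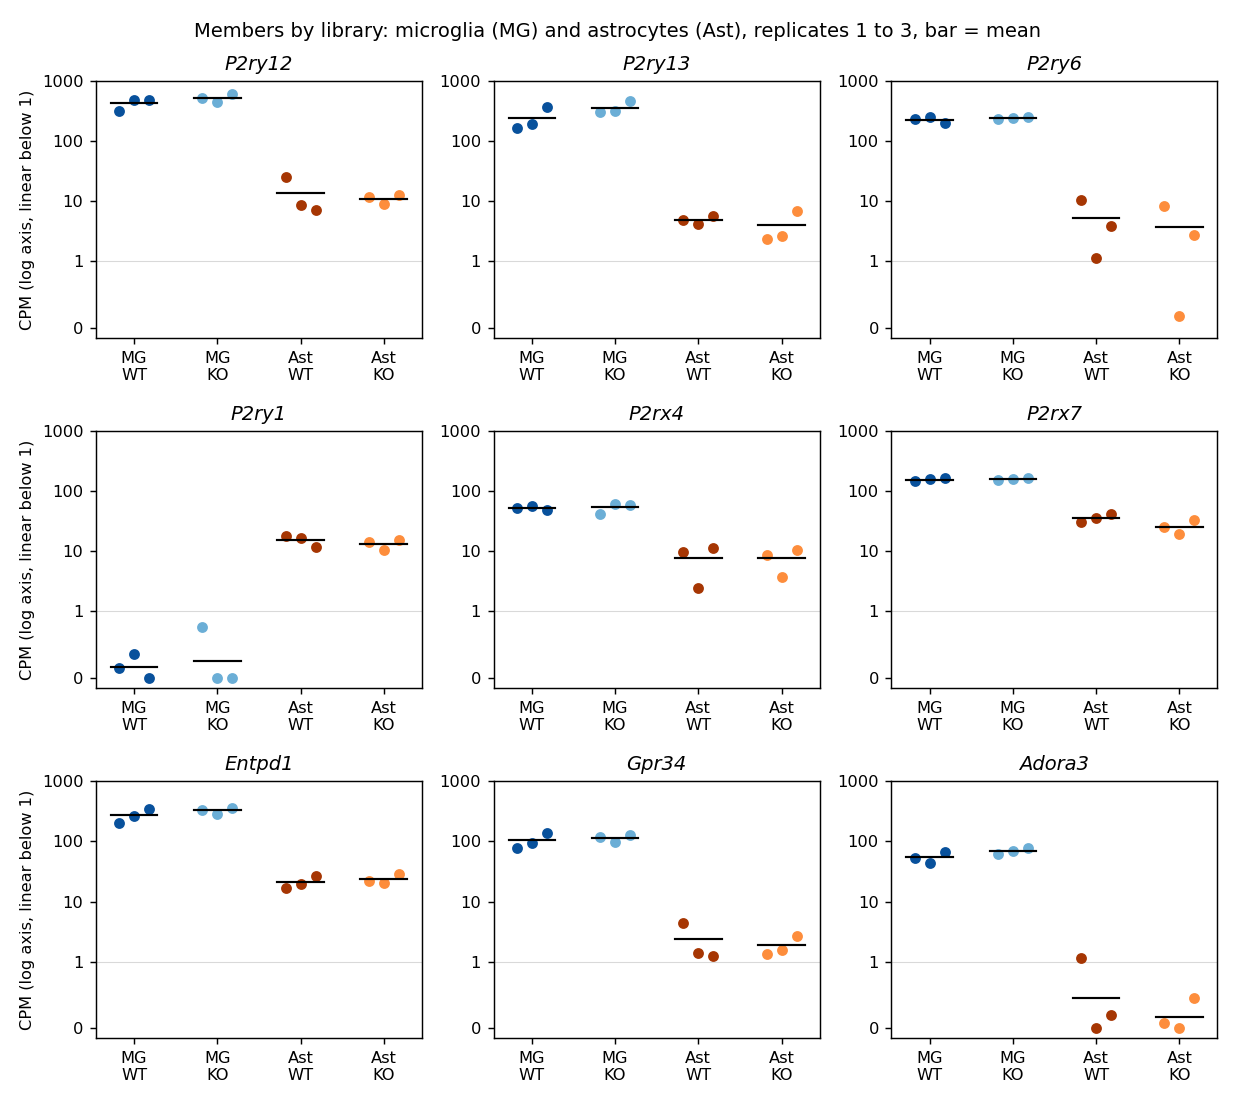
CPM of the 9 members in the 12 libraries on a log axis, with microglia and astrocytes of both genotypes side by side, 1 point per library and a bar at each group's mean. Microglia lie above astrocytes for 8 members and below them for P2ry1, while WT and KO points of a cell type overlap.

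The receptors for ADP and UDP come first. P2ry12, the Gi-coupled ADP receptor, was at 315, 478 and 489 CPM in WT microglia and at 522, 452 and 597 CPM in KO microglia. In astrocytes it was at 25.2, 8.78 and 7.04 CPM in WT and at 11.6, 8.93 and 12.6 CPM in KO. The lowest microglia library thus exceeded the highest astrocyte library, WT replicate 1, more than 10-fold. Microglia exceeded astrocytes 31.5-fold (log2 fold change 4.98, SE 0.30, edgeR adjusted p 2.84e-09).

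P2ry13, a second ADP receptor that also couples to Gi, was at 166, 191 and 376 CPM in WT and at 303, 313 and 463 CPM in KO microglia. Its astrocyte levels were 4.82, 4.23 and 5.61 CPM in WT and 2.38, 2.61 and 6.87 CPM in KO. Microglia were spread over a wide range, yet none came near the astrocyte values. Their log2 difference from astrocytes was 5.79 (SE 0.31, edgeR adjusted p 8.45e-10). P2ry6, the UDP receptor that couples to Gq and drives phagocytosis by microglia, was at 232, 252 and 203 CPM in WT and 236, 243 and 252 CPM in KO microglia. Its astrocyte values were 10.6, 1.14 and 3.90 CPM in WT and 8.42, 0.186 and 2.76 CPM in KO. These microglia values formed a narrow band, whereas the astrocyte values, from 2 to 148 counts per library, were widely scattered. Between the cell types it differed by 5.49 on the log2 scale (SE 0.55, edgeR adjusted p 6.06e-07).

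P2ry1, the Gq-coupled ADP receptor known for calcium signals in astrocytes, was the member with the opposite direction. It was at 18, 16.9 and 11.8 CPM in WT astrocytes and at 14.3, 10.4 and 15.7 CPM in KO astrocytes. In microglia it had 0 counts in WT replicate 3 and in KO replicates 2 and 3, which allows up to 3 counts in each, and the other 3 libraries were at 0.151, 0.359 and 0.775 CPM. No microglia library had more than 8 counts of it, and no astrocyte library fewer than 112. Microglia over astrocytes gave -6.42 on the log2 scale (SE 0.76, edgeR adjusted p 3.04e-06). As P2ry1 passed the count filter only through astrocytes, this call is no separate support, and its size rests on few microglia counts. Of the ADP receptors measured here, P2ry12 and P2ry13 were higher in microglia and P2ry1 in astrocytes. P2ry6, the UDP receptor that couples to Gq, was higher in microglia, so direction did not follow coupling among these members.

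The ATP-gated channels differed least between the cell types. P2rx7, the channel that triggers release of interleukin-1β at high ATP, was at 146, 158 and 165 CPM in WT and at 153, 157 and 166 CPM in KO microglia. Its astrocyte values were 30.6, 35.6 and 41.7 CPM in WT and 25.4, 19.2 and 32.7 CPM in KO, from 206 to 610 counts. The ranges were apart, but by a smaller factor than for any other member. Microglia exceeded astrocytes 4.28-fold (log2 fold change 2.10, SE 0.14, edgeR adjusted p 7.84e-09). P2rx4, the channel known from spinal microglia in neuropathic pain, was at 52.6, 56.0 and 49.0 CPM in WT and at 41.5, 61.7 and 58.5 CPM in KO microglia. In astrocytes it was at 9.71, 2.44 and 11.5 CPM in WT and 8.76, 3.72 and 10.5 CPM in KO. Astrocyte replicate 2 was the low library in both genotypes. The difference between the cell types was 5.77-fold (log2 fold change 2.53, SE 0.31, edgeR adjusted p 5.41e-06).

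Entpd1 encodes CD39, the surface enzyme that removes phosphates from ATP and ADP to give AMP. It was at 204, 269 and 342 CPM in WT and at 336, 286 and 360 CPM in KO microglia. In astrocytes it was at 16.9, 19.6 and 26.7 CPM in WT and at 21.8, 20.3 and 28.4 CPM in KO, from 218 to 442 counts. Each cell type kept within a factor of 2, and the groups of the cell types were far apart. They differed by 3.46 on the log2 scale (SE 0.17, edgeR adjusted p 5.24e-10).

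Gpr34, a receptor for lysophosphatidylserine that is related in sequence to the ADP receptors, was at 78.0, 92.6 and 140 CPM in WT and at 120, 99.5 and 128 CPM in KO microglia. Its astrocyte levels were 4.46, 1.38 and 1.23 CPM in WT and 1.36, 1.58 and 2.63 CPM in KO. WT replicate 1 was again the highest astrocyte library. Microglia over astrocytes gave 5.41 on the log2 scale (SE 0.33, edgeR adjusted p 3.43e-09). Adora3, the Gi-coupled A3 adenosine receptor, was at 53.7, 43.2 and 67.2 CPM in WT and at 61.1, 68.6 and 78.3 CPM in KO microglia. In astrocytes it was at 1.15, 0 and 0.205 CPM in WT and 0.085, 0 and 0.449 CPM in KO, with at most 16 counts in a library and with counts of 0 that allow up to 3 counts. No astrocyte library came near the microglia range. Its log2 difference, 7.35 (SE 0.55, edgeR adjusted p 2.60e-08), had the highest value of the 9 members. As Adora3 passed the count filter only through microglia, this call is no separate support, and its size rests on few astrocyte counts.

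Astrocyte levels were also set against the microglia level of the same animal, since the astrocyte libraries held counts of microglia markers. For the 11 microglia markers, the astrocyte CPM was in the median animal 1.51% to 2.55% of the microglia CPM, apart from Sall1 at 9.26%. P2ry12 had a median of 2.05% (7.99%, 1.84% and 1.44% in WT and 2.23%, 1.98% and 2.12% in KO), and lay within the range of the markers in 6 of 6 animals, although in WT replicate 1 Sall1 was the only marker above it. P2ry13 at 1.49%, P2ry6 at 1.51% and Gpr34 at 1.54% in the median animal were within or below that range in every animal. WT replicate 1 had the highest percentage for P2ry12, P2ry13, P2ry6, Entpd1, Gpr34 and Adora3, and WT replicate 3 for P2rx4 and P2rx7. The median over the markers was also highest in WT replicate 1, at 3.93%, against 1.22% to 2.1% in the other 5 animals. Adora3, at a median of 0.222%, was below all 11 markers in 6 of 6 animals.

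P2rx7, P2rx4 and Entpd1 had higher percentages. P2rx7 was at 20.9%, 22.6% and 25.2% in WT and at 16.6%, 12.2% and 19.7% in KO, above all 11 markers in 6 of 6 animals. P2rx4 was at 18.5%, 4.36% and 23.4% in WT and 21.1%, 6.03% and 18% in KO, above all 11 markers in 4 of 6 animals and above the 10 markers other than Sall1 in 6 of 6. Entpd1 lay between 6.48% and 8.28%, above all markers in 1 of 6 animals and above the 10 in 6 of 6. The astrocyte counts of these 3 genes thus stood at a higher share of the microglia level than most of the microglia markers did. How much of any member's astrocyte count came from microglia or from other cells in the sort was not tested. These percentages are a description with no test.

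**Figure D2:**
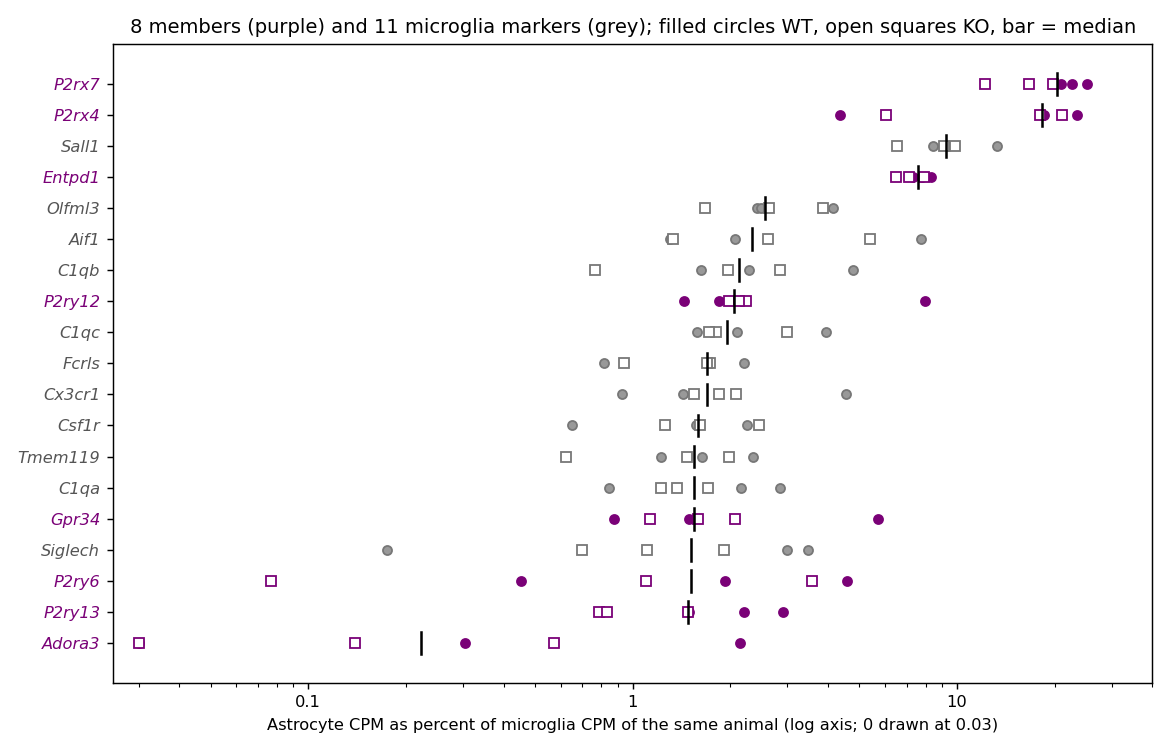
Astrocyte CPM as a percentage of the microglia CPM of the same animal, on a log axis, for 8 members and 11 microglia markers, with 1 symbol per animal and a bar at the median of 6 animals. P2rx7 and P2rx4 have the highest medians, at 20.3% and 18.2%, P2ry12 lies among the markers at 2.05%, and Adora3 is lowest at 0.222%, with values of 0 drawn at 0.03%.

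To compare levels between genes, they were divided by gene length, taken here as the bases covered by any annotated exon (GENCODE M21). This length can exceed that of the transcripts expressed, and the annotation behind the counts is not known. The order below is therefore approximate. On this scale of CPM per kilobase, the order in the 6 microglia libraries was P2ry12 at 187 ± 36.6, P2ry13 at 119 ± 44.2, P2ry6 at 81.9 ± 6.27, Entpd1 at 53.7 ± 10.5 and Gpr34 at 52.5 ± 11.3. Below them came P2rx7 at 26.4 ± 1.24, Adora3 at 16.6 ± 3.31, P2rx4 at 7.58 ± 1.04 and P2ry1 at 0.0499 ± 0.0720 (SD, n = 6 for all). P2ry12, P2ry13 and P2ry6 thus stood above both ATP-gated channels, whereas P2ry1 was last. The ranges of P2ry12 and P2ry13 overlapped, although P2ry12 was above P2ry13 in 6 of 6 libraries. P2ry13 and P2ry6 overlapped, with P2ry13 higher in 4 of 6 libraries, as did Entpd1 and Gpr34, with Entpd1 higher in 4 of 6. All other neighbours in this order were apart in every library.

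In astrocytes the order was another. P2rx7 led at 5.17 ± 1.32 CPM per kilobase, followed by P2ry12 at 4.86 ± 2.59, Entpd1 at 3.99 ± 0.791 and P2ry1 at 3.38 ± 0.685. P2ry13 at 1.75 ± 0.686, P2ry6 at 1.56 ± 1.44, P2rx4 at 1.11 ± 0.536, Gpr34 at 1.01 ± 0.603 and Adora3 at 0.0845 ± 0.119 followed (SD, n = 6 for all). Neighbours in this order overlapped except for Gpr34 and Adora3.

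Genes that overlap members bear on these counts, since the kit does not mark strand and reads of a gene and its antisense partner cannot be told apart. In the annotation, P2ry12 and P2ry13 lie inside Med12l, a subunit gene of the Mediator complex, on the opposite strand, but share 9 and 0 exon bases with it. Med12l was at a mean of 51.4 CPM in microglia and 50.4 CPM in astrocytes (log2 fold change -0.25, SE 0.14, edgeR adjusted p 0.135), so the members' differences between cell types were not shared by it. Gpr34 lies inside Cask, a scaffold protein gene, also on the opposite strand and with 0 shared exon bases, and Cask was at 43.6 and 51.0 CPM. Tmigd3, on the same strand as Adora3, shares 20.9% of the exon bases of Adora3, and was at a mean of 0.0976 CPM in microglia and 0.175 CPM in astrocytes, so the split of reads between the pair is uncertain. P2ry1 shares 23.1% of its exon bases with an antisense transcript not analysed here.

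Neighbours of the members on the chromosome did not all go with them. RefSeq lists P2ry14, a receptor for UDP-glucose and UDP, close to P2ry13 and P2ry12. P2ry14 was at 0.572 ± 0.255 CPM in microglia and 6.64 ± 2.54 CPM in astrocytes (SD, n = 6 each), and microglia over astrocytes gave -3.77 on the log2 scale (SE 0.56, edgeR adjusted p 3.49e-05). Gpr82, an orphan receptor gene beside Gpr34, was at 4.44 ± 0.725 CPM in microglia and 0.107 ± 0.231 CPM in astrocytes (SD, n = 6 each). It went with Gpr34, at 5.48 on the same scale (SE 1.06, edgeR adjusted p 3.78e-04). P2ry14 was too low to be tested within microglia and Gpr82 within astrocytes, so these calls are no separate support.

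The members were then compared between KO and WT microglia, which asks whether these genes depend on Kpna4 after LPS. None passed the test. P2ry1 was too low to be tested, and of the 8 others edgeR called 0 at an adjusted p under 0.05, with 0 at an unadjusted p under 0.05, against a background of 0% of 14191 genes called (0 genes) and 7.42% at an unadjusted p under 0.05. DESeq2 called 0 members and 0.289% of all genes. KO over WT gave a log2 fold change above 0 in 7 of the 8, with a median of 0.20 over the 8 and of -0.00 over all genes tested, 49.9% of which were above 0. WT and KO libraries overlapped for all 8, as they did for most genes. Of all genes tested, 6.53% had every KO library above and 6.57% every KO library below the WT libraries.

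P2ry13 had the highest value, from 244 ± 115 CPM in WT to 360 ± 89.9 CPM in KO microglia (SD, n = 3 each). WT replicate 3, at 376 CPM, was above KO replicates 1 and 2. KO over WT gave 0.54 on the log2 scale (SE 0.28, edgeR unadjusted p 0.0693, adjusted p 0.712). It was 0.97 without WT replicate 3, 0.33 without WT replicate 1 and 0.34 without KO replicate 3, with edgeR adjusted p of 0.404, 0.999 and 0.878. P2ry12 averaged 427 ± 97.3 CPM in WT microglia and 524 ± 72.5 CPM in KO microglia (SD, n = 3 each), with KO replicate 2 below WT replicates 2 and 3. Its log2 fold change was 0.27 (SE 0.21, edgeR adjusted p 0.814), and 0.09 without WT replicate 1.

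Adora3 went from 54.7 ± 12.1 to 69.3 ± 8.60 CPM (log2 fold change 0.32, SE 0.21, edgeR adjusted p 0.778) and Entpd1 from 272 ± 69.2 to 327 ± 38.0 CPM (0.25, SE 0.21, edgeR adjusted p 0.834), each as WT and KO means (SD, n = 3). Both had at least 1 KO library below the highest WT library. Gpr34 averaged 104 ± 32.5 CPM in WT microglia against 116 ± 14.7 CPM in KO (log2 fold change 0.15, SE 0.22, edgeR adjusted p 0.916), and its highest library was a WT one. P2ry6, P2rx4 and P2rx7 had log2 fold changes of 0.06 (SE 0.18), 0.01 (SE 0.22) and -0.00 (SE 0.18), with edgeR adjusted p of 0.958, 0.995 and 0.999.

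**Figure D3:**
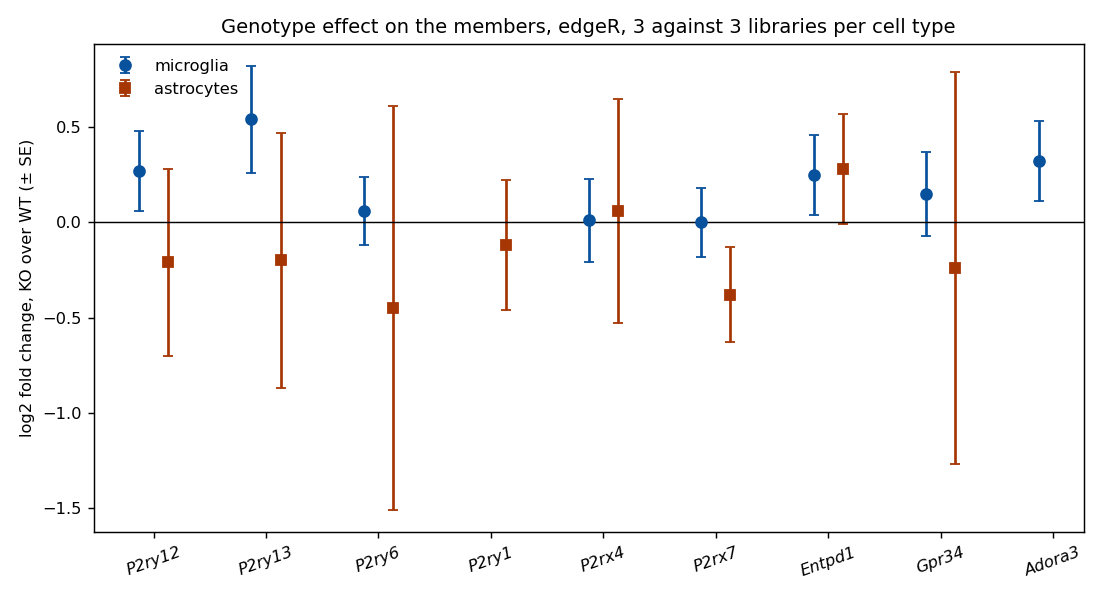
Log2 fold change of KO over WT with its standard error for each member tested, in microglia and in astrocytes (edgeR, 3 against 3 libraries each). The microglia values lie between -0.00 and 0.54 and the astrocyte values between -0.45 and 0.28, and none passed the test.

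The libraries in which the members were highest or lowest were also counted, with no such count over all genes, so the numbers are a description. KO replicate 3 had the highest microglia level of 6 of these 8 members, and WT replicate 1 the lowest level of 5. The summed microglia markers were highest in KO replicate 3 as well, at 19714 CPM, and were 18029 CPM in WT replicate 1, which lay inside the range of the others. The 8 immediate early genes (Fos, Jun, Egr1 and others), which respond to dissociation, summed to 11555 CPM in WT replicate 1 and to 5388 to 9436 CPM in the other 5 microglia libraries. Of the 11 microglia markers, 6 had a log2 fold change of KO over WT above 0 and 5 below 0, with a median of 0.01, while all 10 astrocyte markers had values below 0 in KO microglia, with a median of -0.64. Values were also below 0 for 5 of 5 choroid plexus markers (median -1.51, sums of 884 to 2227 CPM in WT and 356 to 902 CPM in KO), 5 of 5 endothelial markers (median -0.99) and the 3 pericyte markers tested (median -1.53). For 7 of the 8 immediate early genes they were above 0, with a median of 0.24. None of these list genes was called by edgeR, nor was any of all 14191 genes. An edgeR unadjusted p under 0.05 was seen for 5 of 10 astrocyte and 4 of 5 choroid plexus markers. It was seen for 1 of 5 endothelial, 1 of 3 pericyte and 1 of 11 microglia markers and 1 of 8 immediate early genes. Over all genes that share was 7.42%. The part of these levels in the members' values was not tested.

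Members differed in how much they varied over the 6 microglia libraries. The highest library exceeded the lowest 2.80-fold for P2ry13, 1.89-fold for P2ry12, 1.81-fold for Adora3, 1.80-fold for Gpr34 and 1.77-fold for Entpd1. P2rx4 varied 1.49-fold, P2ry6 1.24-fold and P2rx7 1.13-fold. The genes with a pattern over the 6 libraries most like that of P2ry12, by the mean absolute difference of centred log2(CPM + 0.5) among 3729 genes with at least 50 CPM, were Erap1 at 0.032, Tmem33 at 0.040, Adam10 at 0.045, Irgm2 at 0.052 and Sp3 at 0.053. Entpd1 was the nearest member, at 0.076, and P2ry13 and P2rx4 the farthest, at 0.292 and 0.294. Among the 3729 genes Entpd1 ranked 26, Gpr34 330, P2rx7 632, Adora3 1370, P2ry6 1435, P2ry13 2243 and P2rx4 2266. The libraries share their totals and preparation, so likeness over 6 of them is a description.

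Med12l, which contains P2ry12 and P2ry13, was higher in all 3 KO microglia libraries than in the WT ones, at 60.5, 62.5 and 56.0 CPM against 40.9, 45.6 and 43.0 CPM. Its log2 fold change was 0.44 (SE 0.20, edgeR unadjusted p 0.0411, adjusted p 0.652) and did not pass the test. Over all genes, 6.53% had all KO libraries above all WT libraries. As strand is not marked, reads from its introns and reads from the members inside it cannot be told apart.

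In astrocytes, too, no member passed the comparison of KO and WT. Adora3 was too low to be tested, and of the other 8 edgeR called 0 at an adjusted p and 0 at an unadjusted p under 0.05. The background was 0% of 15755 genes called (0 genes) and 2.37% at an unadjusted p under 0.05. DESeq2 called 0 members and 0.0254% of all genes. Log2 fold changes were above 0 for 2 members and below 0 for 6, with a median of -0.21, against -0.01 over all genes, 49.4% of which were above 0. The log2 fold change of the 11 microglia markers was below 0 for 10 and above 0 for 1 in KO astrocytes, with a median of -0.22, and the part of this in the members' values was not tested. All 8 overlapped between the genotypes, while over all genes 2.39% had every KO library above and 5.74% every KO library below the WT libraries.

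P2ry1, the member called higher in astrocytes, averaged 15.6 ± 3.29 CPM in WT astrocytes and 13.5 ± 2.72 CPM in KO astrocytes (SD, n = 3 each), and KO over WT gave -0.12 on the log2 scale (SE 0.34, edgeR adjusted p 0.999). P2rx7 averaged 36.0 ± 5.57 CPM in WT astrocytes and 25.8 ± 6.76 CPM in KO astrocytes (log2 fold change -0.38, SE 0.25, edgeR unadjusted p 0.163, adjusted p 0.999), with KO replicate 3 above WT replicate 1. For Entpd1 this value was 0.28 (SE 0.29), and for P2rx4 0.06 (SE 0.59). P2ry12, P2ry13, P2ry6 and Gpr34, whose astrocyte levels lay near those of the microglia markers, had values of -0.21 (SE 0.49), -0.20 (SE 0.67), -0.45 (SE 1.06) and -0.24 (SE 1.03). All of these had an edgeR adjusted p of 0.999. Without WT replicate 1, the astrocyte library with the highest sum of microglia markers, the values of P2ry12, P2ry6 and Gpr34 turned to 0.59, 0.64 and 0.62.

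The difference between the genotype effects, astrocytes minus microglia, was tested in 1 fit of all 12 libraries. Of the 9 members, edgeR called 0, with 0 at an unadjusted p under 0.05, against a background of 0% of 17294 genes called and 6.37% at an unadjusted p under 0.05. DESeq2 called 0 members and 0.312% of all genes. The median over the members was -0.39 and over all genes 0.16. The members' median includes P2ry1 and Adora3, whose values cannot inform on this difference for the reason given below. No conclusion is therefore drawn from the gap between these medians. P2ry13 had a value of -0.64 (SE 0.52, edgeR adjusted p 0.933), P2ry12 one of -0.39 (SE 0.52, edgeR adjusted p 0.995) and P2rx7 one of -0.28 (SE 0.27, edgeR adjusted p 0.966). P2ry6, P2rx4, Entpd1 and Gpr34 lay between -0.41 and 0.14. P2ry1 in microglia and Adora3 in astrocytes were too low to be tested within that cell type, and entered this fit through the cell type where they are high, so their values (-0.50, SE 1.43, and -1.29, SE 1.10) say nothing of a difference between the effects.

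Other genes of nucleotide signalling, and genes around the lipid ligand of Gpr34, were read from the same fits. Of 51 genes in 7 groups, 40 could be tested between the cell types, of which 13 were called higher in microglia and 17 higher in astrocytes (32.5% and 42.5%, beside 28.2% and 36.4% of all genes). Their median log2 fold change was -0.06, also with the 3 genes that had no count in a whole group set to a floor of 3 counts. These shares lay near the background, so the counts set the pathway genes apart from other genes in neither direction. Some genes named below were too low to be tested within the cell type where they are lower. In astrocytes these were P2ry2, P2ry10b and P2rx1. In microglia these were P2rx6, P2ry14, Adora2a, Adora2b, Entpd2, Alpl, Nt5e and Panx2. They passed the count filter through the other cell type, so their calls between the cell types are no separate support. Between KO and WT, edgeR called 0 of 29 in microglia, with 1 at an unadjusted p under 0.05 (7.42% of all genes). In astrocytes it called 0 of 34, with 0 at an unadjusted p under 0.05 (2.37% of all genes). For the difference of the effects it called 0 of 40, with 3 at an unadjusted p under 0.05 (6.37% of all genes).

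Among 10 other genes named as P2 receptors, 6 were tested, 3 were called higher in microglia and 2 higher in astrocytes. They were listed by name, and whether each product binds nucleotides was not checked. P2ry2, a receptor for ATP and UTP, was at 9.17 ± 2.24 CPM in microglia and 0.450 ± 0.394 CPM in astrocytes (log2 fold change 4.13, SE 0.68, edgeR adjusted p 8.59e-05, n = 6 each). P2ry10b at a mean of 6.94 CPM and P2rx1 at 2.0 CPM were called higher in microglia, and both had 0 counts in all 3 KO astrocyte libraries. P2rx6, at 9.42 ± 4.58 CPM in astrocytes and 0.273 ± 0.423 CPM in microglia (SD, n = 6 each), was called higher in astrocytes. Together with P2ry14 it went with P2ry1.

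All 3 other adenosine receptors were called higher in astrocytes, opposite to Adora3. Adora2a and Adora2b were too low to be tested within microglia, so only the call of Adora1 rests on a gene tested within both cell types. Adora1, the Gi-coupled A1 receptor, was at 98.2 ± 21.2 CPM in astrocytes and 9.36 ± 4.84 CPM in microglia (log2 fold change -3.69, SE 0.27, edgeR adjusted p 1.80e-08, n = 6 each). Adora2b was at 15.8 ± 6.25 CPM in astrocytes and at 0.278 ± 0.647 CPM in microglia (-7.03, SE 0.89, edgeR adjusted p 6.52e-06). Adora2a was at only 2.30 ± 1.41 CPM in astrocytes, overlapping the microglia libraries, which averaged 0.138 ± 0.195 CPM (-4.88, SE 1.28, edgeR adjusted p 0.00385). The median over the 3 was -4.88.

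The ectoenzymes other than Entpd1 were on the astrocyte side where they were called. Those called, Entpd2, Alpl and Nt5e, were all too low to be tested within microglia. Of 8 genes, 5 were tested, 0 were called higher in microglia and 3 higher in astrocytes, and the median over the 5 was -2.62. Entpd2, which turns ATP into ADP with little further cutting, was at 50.4 ± 10.3 CPM in astrocytes and 0.496 ± 0.892 CPM in microglia (log2 fold change -7.09, SE 0.69, edgeR adjusted p 3.87e-07). Alpl, the tissue-nonspecific alkaline phosphatase, was at 28.2 ± 5.14 and 0.742 ± 0.832 CPM (-5.61, SE 0.66, edgeR adjusted p 2.86e-06). Nt5e, which encodes CD73 and turns AMP into adenosine, was low in both, at 3.14 ± 1.91 and 0.559 ± 0.609 CPM (-2.62, SE 0.98, edgeR adjusted p 0.0297, SD and n = 6 throughout). Its call was lost without WT replicate 1, KO replicate 2 or KO replicate 3, with edgeR adjusted p up to 0.129. Entpd1 was thus the ectoenzyme gene of this set that was called higher in microglia.

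Genes that handle adenosine had 9 of 10 tested, 3 called higher in microglia, 2 called higher in astrocytes and a median of 1.26. Slc29a3, a nucleoside transporter of lysosomes, was at 422 ± 123 CPM in microglia and 64.9 ± 10.5 CPM in astrocytes (log2 fold change 2.41, SE 0.19, edgeR adjusted p 4.63e-08). Slc29a1, the nucleoside transporter ENT1 of the cell surface, was at 42.4 ± 5.99 and 9.79 ± 2.21 CPM (1.84, SE 0.21, edgeR adjusted p 2.16e-06). Pnp, purine nucleoside phosphorylase, was at 140 ± 49.9 and 46.4 ± 4.92 CPM (1.26, SE 0.19, edgeR adjusted p 3.69e-05). Adk, the kinase that returns adenosine to AMP, was on the astrocyte side, at 10.8 ± 2.12 CPM in microglia and 101 ± 17.8 CPM in astrocytes (-3.52, SE 0.21, edgeR adjusted p 2.62e-09, SD and n = 6 throughout). Slc29a2 was also called higher in astrocytes (-0.99, SE 0.40, edgeR adjusted p 0.0387), a call lost without any 1 of the 6 animals and, at an adjusted p of 0.0584, with the animal as a block. Pnp was the gene at an unadjusted p under 0.05 between KO and WT microglia (0.70, SE 0.25, edgeR unadjusted p 0.0140, adjusted p 0.587), with overlapping libraries, and was named for that after its value was seen.

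Of 7 genes of nucleotide release, 5 were tested, 3 were called higher in microglia and 2 higher in astrocytes, with a median of 1.96. Slc17a9, the vesicular nucleotide transporter, was at 11.4 ± 4.96 CPM in microglia and 1.26 ± 1.51 CPM in astrocytes (log2 fold change 3.36, SE 0.68, edgeR adjusted p 5.27e-04), and the channel gene Calhm2 at 17.8 ± 2.99 and 3.51 ± 1.45 CPM (2.11, SE 0.34, edgeR adjusted p 7.69e-05). Lrrc8a, a subunit of the volume-regulated anion channel, was at 144 ± 37.4 CPM in microglia and 447 ± 66.3 CPM in astrocytes (-1.91, SE 0.18, edgeR adjusted p 2.87e-07, SD and n = 6 throughout). The pannexin genes were low and went apart, Panx1 towards microglia (1.96, SE 0.69, edgeR adjusted p 0.0218) and Panx2 towards astrocytes (-3.48, SE 0.73, edgeR adjusted p 7.21e-04). With the animal as a block, which pairs both libraries of an animal, the adjusted p of Panx1 was 0.0536 and its call was lost, as it was without WT replicate 1 or 3.

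All 9 genes that couple the receptors were tested, 3 were called higher in microglia and 4 higher in astrocytes, with a median of -0.13. Kcnk13 encodes THIK-1, a potassium channel that P2Y12 signalling opens in microglia. It was at 107, 68.4 and 77.1 CPM in WT and at 59.8, 68.2 and 60.9 CPM in KO microglia, and at 0 to 8.55 CPM in astrocytes. It stood with P2ry12 on the microglia side (log2 fold change 5.18, SE 0.70, edgeR adjusted p 1.32e-05). All 3 KO microglia libraries were below the WT libraries, the closest being 68.2 and 68.4 CPM, but the difference of KO from WT, -0.45 on the log2 scale (SE 0.22, edgeR adjusted p 0.695), did not pass the test. Over all genes, 6.57% had all KO libraries below all WT libraries.

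Among the signalling proteins, Arrb2, a β-arrestin that switches receptors off, was at 305 ± 28.3 CPM in microglia and 15.4 ± 2.74 CPM in astrocytes (log2 fold change 4.0, SE 0.20, edgeR adjusted p 5.74e-10), whereas Arrb1 went the other way (-1.24, SE 0.15, edgeR adjusted p 4.16e-06). Gnai2, a Gi subunit gene, was at 681 ± 63.6 and 310 ± 40.2 CPM (0.85, SE 0.14, edgeR adjusted p 8.04e-05, SD and n = 6 each), while Gnai1, another Gi gene, was called the other way (-2.41, SE 0.52, edgeR adjusted p 8.84e-04) and Gnai3 was not called (-0.13, SE 0.16, edgeR adjusted p 0.515). Of the Gq-class genes, Gna11 was called higher in astrocytes (-1.12, SE 0.18, edgeR adjusted p 7.02e-05) and Gnaq was not called (0.09, SE 0.15, edgeR adjusted p 0.617). The choice to name Gnai1, Gnai3 and Gnaq was made with their values known. Of the 4 genes around lysophosphatidylserine, the ligand of Gpr34, 3 were tested, with a median of 0.01. Abhd12, the lipase that degrades it, was at 509 ± 111 CPM in microglia and 97.9 ± 18 CPM in astrocytes (2.10, SE 0.19, edgeR adjusted p 2.16e-07, SD and n = 6 each). Pla1a, a phospholipase that makes it, was called higher in astrocytes (-1.51, SE 0.60, edgeR adjusted p 0.0378), a call lost without any 1 of the 6 animals and, at an adjusted p of 0.0923, with the animal as a block.

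**Figure D4:**
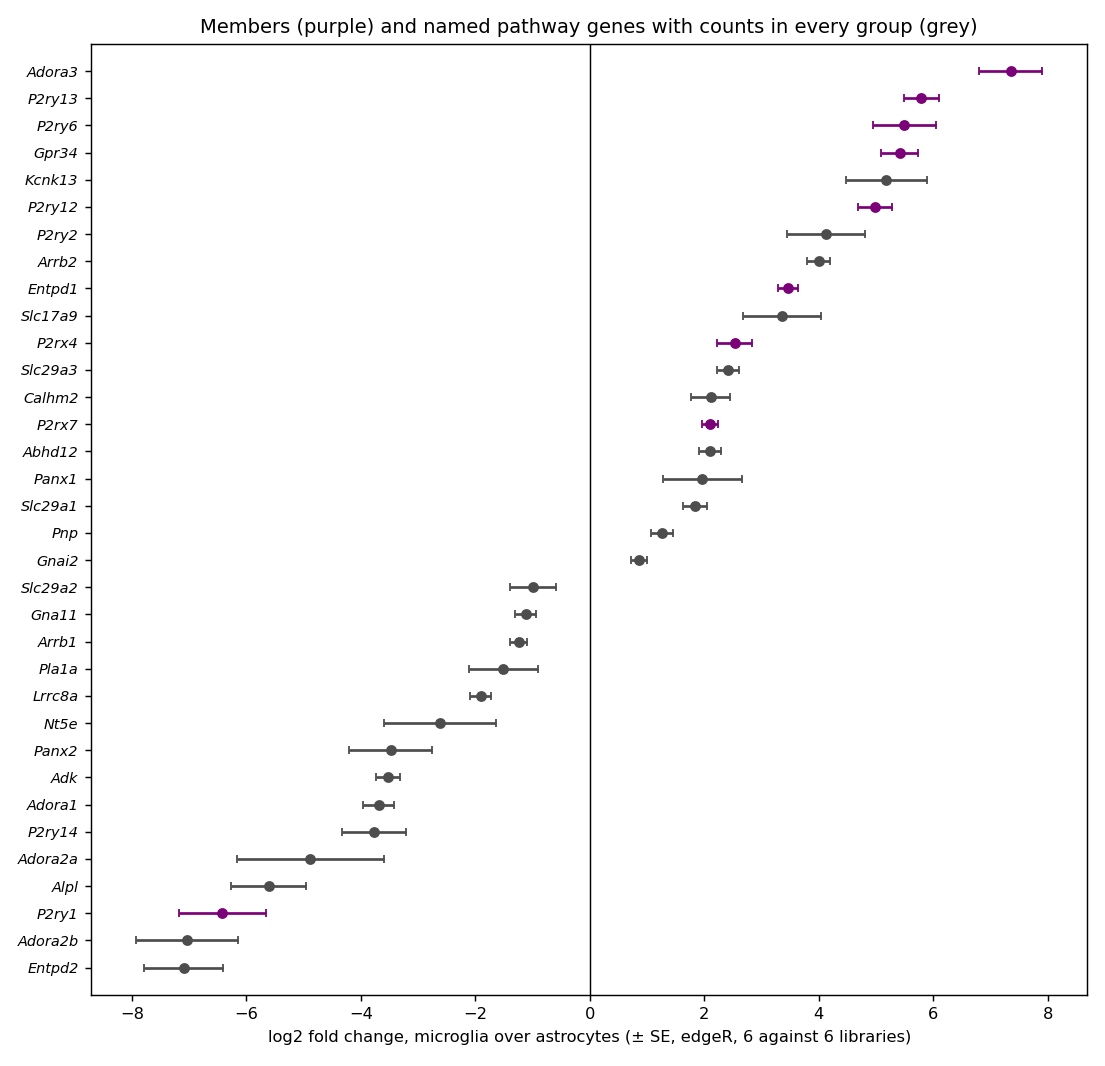
Log2 fold change of microglia over astrocytes with its standard error, from edgeR with 6 against 6 libraries. Shown are the 9 members (purple) and 25 called pathway genes with counts in every group (grey). These pathway genes were those called with the smallest adjusted p in each list, so all 34 genes were called and the split describes a selected list. Gnai1, Gnai3 and Gnaq are named in the text but not shown. Of the 34 genes 19 are higher in microglia and 15 in astrocytes, with Adora3 at 7.35 and Entpd2 at -7.09 at the ends. Adora3 and Entpd2 were both too low to be tested between KO and WT in the cell type where they are lower.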

How the data were processed

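RNA of microglia and astrocytes sorted from the same 6 mice was measured in 12 libraries. Estimated counts per gene symbol, not normalized, were deposited by the authors in 1 table per cell type. The submitters' processing notes name STAR 2.7.10b, RSEM 1.3.3, limma and the build GRCm39, and no source used here gives the annotation. Per the labels' protocols, full-length cDNA was made with SMART-Seq HT, which has no molecular identifiers, so counts hold amplified copies and floors of 3 counts cover counting error only. Between 3.44% and 5.27% of values above 0 were not whole (tolerance 0.001), as reads shared by several genes are divided between them.

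Estimated counts were rounded. CPM used each library's total. edgeR 4.0.16 (R 4.3.3) was run with TMM factors, filterByExpr (minimum count 10) and quasi-likelihood tests, with Benjamini-Hochberg adjustment over all genes and calls at an adjusted p under 0.05. KO and WT were compared within each cell type, the cell types and the interaction in 1 fit of 12 libraries, and the SE is the fold change divided by the square root of F. The scripts were tested on simulated data. The members, gene lists, marker lists and motifs were chosen with earlier results of these data known. Named are the members, Kpna4, genes that overlap or neighbour members, and from each pathway list every gene called between KO and WT and up to 5 with the smallest adjusted p between cell types. The alternatives were DESeq2 1.42.0, its size factors in edgeR, no filter, a minimum count of 50, no abundant non-coding transcripts, each replicate left out, a replicate or animal block, and all 12 libraries in 1 fit. Exon lengths and overlaps are from GENCODE M21 on GRCm38, so gene coordinates are not printed. Acp3 is listed as Acpp. 1 microglia marker of the list is not reported here and was left out of its sums.

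Animal numbers in the labels pair each microglia library with an astrocyte library. Across genes, the correlation of such a pair's deviations from its group means was 0.01, 0.08 and 0.10 for the WT and 0.06, 0.00 and 0.06 for the KO animals.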

Additional observations from a re-analysis of the deposited data

How the results depend on the processing

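Members called did not change under any alternative: 0 between KO and WT in microglia and in astrocytes (13 alternatives each) and for the difference of the effects (12), and 9 of 9 between the cell types (12). Genes called over all genes between KO and WT in microglia went from 0 to 41 with DESeq2, 121 with no filter, 30 with the replicate block and 41 with all 12 libraries in 1 fit, and ranged from 0 to 2 without 1 replicate (2 without KO replicate 2). In astrocytes they went from 0 to 4 with DESeq2 and 17 with no filter, and from 0 to 1 without 1 replicate (1 without WT replicate 1). For the difference of the effects they went to 54 and 160, and from 0 to 6 without 1 animal (1 without WT replicate 2 and 6 without KO replicate 3). The cause of these changes was not tested.

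Values near 0 turned direction. In microglia, the log2 fold change of P2ry6 was -0.03 with all 12 libraries in 1 fit. P2rx4 was at -0.03 with a minimum count of 50, -0.00 with the replicate block and -0.08 with all 12 libraries. Without 1 replicate, P2ry6 ranged from -0.03 to 0.14, P2rx4 from -0.09 to 0.18, P2rx7 from -0.05 to 0.04 and Gpr34 from -0.02 to 0.40. In astrocytes, the replicate block gave 0.04 for P2ry12 and 0.01 for Gpr34. Without 1 replicate, P2ry12 ranged from -0.55 to 0.59, P2ry13 from -0.78 to 0.09, P2ry6 from -1.74 to 0.64, P2rx4 from -0.36 to 0.37 and Gpr34 from -0.57 to 0.62. For the difference of the effects, P2rx4 was at -0.02 and Entpd1 at -0.03 both with no filter and without the abundant non-coding transcripts. Without 1 animal, P2ry12 ranged from -0.87 to 0.53, P2ry6 from -1.75 to 0.59, P2ry1 from -1.60 to 4.02, P2rx4 from -0.50 to 0.50, Entpd1 from -0.11 to 0.11, Gpr34 from -0.89 to 0.71 and Adora3 from -3.31 to 0.66. Between the cell types, Med12l ranged from -0.28 to 0.01. All these have an adjusted p above 0.05. The microglia values of P2ry12, P2ry13, Entpd1 and Adora3 stayed above 0 in all 13 alternatives.

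Replicate numbers do not pair WT with KO animals in the labels, and same-numbered pairs had correlations of 0.14, 0.06 and 0.25 (microglia) or -0.02, 0.05 and 0.27 (astrocytes). With the replicate block, P2ry13 in microglia had a log2 fold change of 0.60 and an adjusted p of 0.322. With the animal as a block, P2ry12 and the 8 other members remained called between the cell types. Counts of at most 8 for P2ry1 in microglia and 16 for Adora3 in astrocytes limit what can be said of genotype there.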
